A study of Arabidopsis thaliana with 8 samples.

Results

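The 102 probe sets described here are each paired with 1 gene at a nuclear locus of Arabidopsis thaliana whose signal was at least 4-fold higher after heat shock in wild type and in a lipocalin mutant. For 17 of them the nuclear origin of the signal is not settled, as described below. They were chosen from 13415 probe sets that the annotation pairs with 1 gene at a nuclear locus (AT1G to AT5G), out of 22810 on the array. The rule asked that log2(group mean + 16) be higher by 2 or more at 37 °C than at 22 °C in both genotypes. The heat differences of both genotypes thus chose the members, and they are given below as a description with no test. In all, 122 probe sets met the rule, 0.909% of the 13415, and 20 of these were left out by name. The 20 are 8 small heat shock proteins, 3 calmodulin-like genes (CML37, CML38 and AT1G21550, known as CML44), Hop2, Hop3, HSC70-2, HSC70-3, AT1G71000, AT2G20560, ROF2, HSA32 and DER1. TIL and ZAT10 did not meet the rule.

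The RNA came from 7-day-old seedlings of Col-0 (wild type) and of til1-1, which is mutated in TIL (AT5G58070), a gene encoding a temperature-induced lipocalin. Seedlings of both were held at 22 °C or heat shocked at 37 °C and harvested at its end, and each of the 4 groups has 2 biological replicates, each on 1 Affymetrix array. About 100 plants were pooled per sample, so a change in the number of cells of a type and a change in the RNA per cell cannot be told apart. The labels state neither how long the heat lasted nor what kind of allele til1-1 is, and with 8 arrays all values have limited precision. Levels are deposited intensities in arbitrary units, and heat differences are log2 values of group means after adding 16, which understates the change of dim probe sets.

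The targeted gene was examined first. TIL read 3795 and 3132 in Col-0 and 3168 and 3048 in the samples labelled til1-1 at 22 °C. At 37 °C it read 21246 and 20289.7 in Col-0 and 5804 and 5342 in the samples labelled til1-1. Its level differed between genotypes at 37 °C (log2 difference -1.90, limma adjusted p 1.51e-06), and at 22 °C the difference did not pass (-0.15, limma adjusted p 1.00), so the label is not borne out there. In what follows til1-1 stands for the samples labelled so. Array medians lay between 197.6 and 204.1 at 22 °C and between 154.8 and 160.4 at 37 °C. Of 11 organ markers 6 had a 1-gene probe set. The root genes PYK10 (log2 heat differences by limma of -0.67 in Col-0 and -0.84 in til1-1), EXPA7 (-1.20 and -1.73) and EXPA18 (-1.19 and -1.61) fell, and did so under every scaling run. The green-tissue genes RCA (0.37 and 0.62) and LHCB4.1 (0.39 and 0.62) were higher as deposited but turned to -0.23 and -0.18 for RCA, and -0.21 and -0.15 for LHCB4.1, after quantile normalization. The pollen gene AT5G45880 had group means of 5.45 to 12.0 and was too dim to be tested. The part of these organs' RNA in the values below was not tested.

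Heat shock unfolds proteins, and plant cells answer through heat shock factors, transcription factors that bind the promoters of chaperone genes. The best known targets are chaperones, which hold or refold unfolding proteins. The response also takes in genes that remove damaged proteins, change membranes and lipids, splice and translate RNA, and signal, and members of all these kinds are described below.

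The members' median heat difference was 3.33 on the log2 scale in Col-0 and 3.23 in the samples labelled til1-1, against medians of -0.10 and -0.09 over the 13415 nuclear probe sets. The range was 2.07 to 6.83 in Col-0 and 2.02 to 6.79 in the samples labelled til1-1, and 29 members were raised at least 16-fold in both genotypes on this scale. In each of the 102, all 4 samples at 37 °C read above all 4 at 22 °C, which held for 10.7% of the nuclear probe sets; since the rule used these values, nothing is read from that count. At 22 °C group means of the members ran from 2.60 to 5173 in Col-0, with a median of 158.6, and 14 lay below 16, where the added constant weighs most. At 37 °C they ran from 83.0 to 24473, with a median of 2160, and 16 members exceeded 10000 in each genotype.

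**Figure D1:**
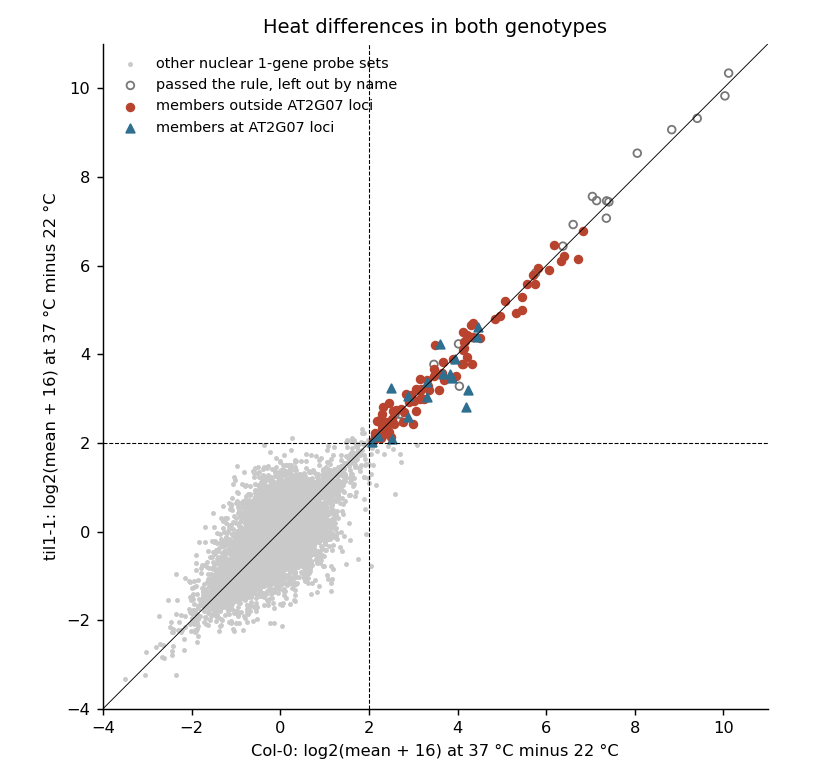
Heat differences, log2(group mean + 16) at 37 °C minus 22 °C, in Col-0 (horizontal axis) and til1-1 (vertical axis) for the nuclear 1-gene probe sets, 1 point each; dashed lines mark the limit of 2 and the solid line equality. The 102 members (filled symbols) run from 2.07 to 6.83 in Col-0 along the line of equality, and open circles are the 20 probe sets left out by name.

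The limit cuts through a continuous range. The members closest to it were AT2G07695 (2.07 and 2.02 in Col-0 and til1-1), AT2G41170 (2.10 and 2.05) and AT5G58110 (2.13 and 2.09). Just outside it lay AT3G49160 (1.99 and 2.07), AT1G49790 (1.97 and 2.06) and AT4G24380 (1.99 and 1.95).

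By function, as far as it is known with some certainty, 53 members fell into 6 groups. These were membranes, lipids and metabolism (13 members), protein degradation (10), protein folding (10), signalling and defence (10), RNA and translation (7) and transcription factors (3). A further 17 members belong to loci numbered AT2G07, described below, and 32 are given no role here. The groups were assigned with the values known, so group medians are a description and are not evidence that a function is over-represented.

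Protein folding remained among the members beyond the chaperones left out. The largest heat difference among the members was that of AT1G30070 (6.83 and 6.79), which encodes a protein with the SGS domain also found in the co-chaperone SGT1. It read 184 and 157 at 22 °C and 21279 and 21017 at 37 °C in Col-0, and 172 and 187 at 22 °C and 21760.3 and 21429 at 37 °C in the samples labelled til1-1. All replicates lay within a narrow band at each temperature, a 124-fold and 120.4-fold difference of group means in Col-0 and til1-1. Fes1A, which acts on cytosolic HSP70 and is needed for thermotolerance, went from 219 and 246 to 16568 and 16580.0 in Col-0 and from 288 and 246 to 16859 and 17023 in til1-1. AT1G66080 is related to Hikeshi, which in human cells carries HSP70 into the nucleus. It went from 86.3 and 92.0 to 4932 and 4261 in Col-0 and from 109 and 100.1 to 5134 and 4278 in til1-1, with heat differences of 5.45 and 5.29. AT3G14200, a DnaJ-domain gene, went from 274 and 259.9 to 3424 and 2939 in Col-0 and from 196 and 148 to 3595 and 3364 in til1-1. The plastid chaperonin gene Cpn60beta2 went from 1583 and 1531 to 17474 and 17599 in Col-0 and from 1256 and 1301 to 16384 and 16230.0 in til1-1. The others were AT3G12050 and AT5G58110, relatives of the HSP90 activator Aha1, the cyclophilin gene AT1G01940, SGT1A, a co-chaperone of HSP90, and BOB1, a NudC-domain protein required for development and thermotolerance. Heat differences of these 5, of AT3G14200 and of Cpn60beta2 ran from 2.13 (AT5G58110) to 4.21 (AT3G12050) in Col-0 and from 2.09 to 4.42 for the same genes in til1-1.

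In the protein degradation group 6 of 10 members had heat differences between 4.16 and 4.35 in Col-0. AT1G26800, AT5G47610, AT1G14200 and AT1G55530 encode RING-type proteins and AT5G18340 a U-box protein, both being domains of ubiquitin ligases, which mark proteins for destruction. AT1G26800 read 586 and 575 at 22 °C and 12625 and 11730.4 at 37 °C in Col-0, and 608 and 552 at 22 °C and 13253 and 11787 at 37 °C in the samples labelled til1-1. This is a 21.0-fold and 21.6-fold difference in Col-0 and til1-1, and the genotypes overlapped at both temperatures. AT5G47610 went from 487 and 526 to 11167 and 10118 in Col-0 and from 497 and 429.9 to 12449.5 and 12433 in til1-1, and AT1G14200 went from 242 and 265 to 5205 and 4705 in Col-0 and from 345 and 303 to 5170.1 and 5138 in til1-1. AT1G55530 started higher and rose less (3.06 and 3.22), and AT5G18340 started lower, at 47.5 and 39.4 in Col-0, and rose by 4.16 and 4.27. UFD1 proteins, known from yeast to hand ubiquitin-marked proteins to the CDC48 segregase, were represented by AT4G15420 (4.30 and 4.39). AT3G07090, a PPPDE-type peptidase gene, went from 974 and 907 to 19275 and 18406 in Col-0 and from 857 and 847 to 22224 and 21456 in til1-1, and was the brightest of the group when heated. AT5G51740 encodes the mitochondrial membrane peptidase OMA1 (3.15 and 3.18). The neighbouring genes AT2G41160, for a protein with a ubiquitin-associated domain (2.73 and 2.77), and AT2G41170, for an F-box protein (2.10 and 2.05), had the smallest heat differences of the group.

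Among genes of RNA and translation, AT5G12110 encodes a subunit of translation elongation factor 1B, which recharges the factor that brings aminoacyl-tRNA to the ribosome. It read 265 and 322 at 22 °C and 14117 and 15043 at 37 °C in Col-0, and 295 and 317 at 22 °C and 15174 and 15462 at 37 °C in the samples labelled til1-1. The rise was 49.7-fold and 50.1-fold. The genotypes overlapped at 22 °C, while at 37 °C both til1-1 samples lay above both Col-0 samples, as in 21.2% of the nuclear probe sets. That difference at 37 °C was 0.07 ± 0.09 on the log2 scale (standard error, limma adjusted p 0.786) and did not pass. AT5G54940, a SUI1-type translation initiation factor gene, was already at 5464 and 4882 in Col-0 at 22 °C, the highest starting level of any member, and reached 22929 and 22739.7. AT5G53680, for an RNA-binding protein with an RNA recognition motif, was as dim as the added constant at 22 °C and went from 16.1 and 11.4 to 1162 and 1177 in Col-0 and from 26.9 and 16.4 to 1099 and 1175 in til1-1. Genes of the splicing machinery were AT1G66510, of the AAR2 family, (3.58 and 3.20) and AT2G42270, a U5 helicase of the BRR2 type (2.53 and 2.54). Organelle RNA factors were AT5G64950, an mTERF gene (3.31 and 3.42), and AT2G20720, a pentatricopeptide repeat gene (2.50 and 2.14). In AT2G42270 replicate 1 lay above replicate 2 in both heated groups: it read 1503 and 1135 in Col-0 and 1613 and 1106 in til1-1 at 37 °C.

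Membranes, lipids and metabolism made up the largest group with a role, and it held both very large and modest rises. AT5G25450 encodes a subunit of complex III of the mitochondrial respiratory chain. It read 179 and 214 at 22 °C and 15883 and 14726 at 37 °C in Col-0, and 184 and 175 at 22 °C and 16803 and 17485 at 37 °C in the samples labelled til1-1. The heated til1-1 samples both lay above the heated Col-0 samples, as in 21.2% of the nuclear probe sets. That difference was 0.16 ± 0.09 on the log2 scale (standard error, limma adjusted p 0.472) and did not pass. AT1G67360, a lipid droplet-associated protein gene, went from 358 and 331 to 19388 and 19234 in Col-0 and from 397 and 376 to 20221 and 18384 in til1-1. The remaining 11 members had heat differences between 2.17 and 3.33 in Col-0. AT1G16040 encodes the PIG-F protein of glycosylphosphatidylinositol anchor synthesis, AT1G74320 a choline kinase of phospholipid synthesis, with heat differences of 3.33 and 3.27, and of 2.38 and 2.34, in Col-0 and til1-1. AT1G73480, for an alpha/beta hydrolase, went from 261 and 305 to 1426 and 1258 in Col-0 and from 267 and 309.6 to 1584 and 1834 in til1-1. A pair of Mpv17/PMP22-type membrane protein genes was raised, AT4G33905 from a dim start (39.5 and 38.5 in Col-0) by 3.02 and 2.94. AT1G52870, the other, started bright (2336 and 2393) and rose by 2.39 and 2.41. For thiol chemistry there were AT4G15680, a glutaredoxin gene with close relatives beside it whose transcripts may share its probes (2.92 and 2.92), and AT5G42150, a glutathione transferase-like gene (2.55 and 2.71). The group was completed by AT2G23110, a late embryogenesis abundant protein gene (3.25 and 2.99), AT5G04610, for a methyltransferase (2.99 and 2.43), AT4G33660, for a small cysteine-rich membrane protein (2.39 and 2.47), and AT1G15410, for an amino acid racemase (2.17 and 2.12).

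AT1G16040 was the one member whose gene had another 1-gene probe set, which the rule had not chosen. That second probe set was dimmer, at 75.9 and 71.4 at 22 °C and 289 and 218 at 37 °C in Col-0, and 66.2 and 82.0 and 398 and 327 in the samples labelled til1-1. Its heat differences were 1.59 in Col-0 and 2.07 in til1-1, below those of the member in both genotypes but in the same direction in all samples.

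Signalling and defence genes included AT1G72660, a GTP-binding protein gene of the DRG family, which read 18.1 and 10.7 at 22 °C and 1408 and 1223 at 37 °C in Col-0, and 26.9 and 33.6 at 22 °C and 1479.5 and 1448 at 37 °C in the samples labelled til1-1. The controls were dim, so its 91.3-fold and 48.4-fold differences rest on dim values. AT4G36010 encodes a thaumatin-like protein of the pathogenesis-related class. It went from 148 and 160.3 to 5610.5 and 4086 in Col-0 and from 158 and 147 to 5702 and 3684 in til1-1, and replicate 1 lay above replicate 2 in both heated groups. AT3G62260, for a protein phosphatase of type 2C, went from 139 and 110.1 to 2899.9 and 2674 in Col-0 and from 184 and 178 to 2794 and 2560.1 in til1-1. AT1G66090 and AT1G17600 encode intracellular receptors of the TIR class that take part in immunity, with heat differences of 4.13 and 3.79 for the former and 2.28 and 2.12 for the latter. Calcium-binding C2 domains are found in SRC2 (2.30 and 2.15), AT4G34150 (2.46 and 2.24) and AT3G57880 (2.14 and 2.22). The others were AT1G58170, a dirigent gene (3.07 and 2.72), and AT3G03270, of the universal stress protein family (2.27 and 2.54).

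Among the members, 3 were placed with transcription factors. No transcription factor on the list of heat-raised genes described below had a 1-gene probe set, so nothing is read from this count. AT1G76880, of the trihelix family, went from 197 and 248 to 2188 and 2075 in Col-0 and from 200.1 and 242 to 2038 and 2324 in til1-1. AT4G18450, of the ethylene response factor family, was dimmer and rose by 2.80 and 2.69. AT5G23480, for a protein with SWIB, Plus-3 and GYF domains, started at 14.5 and 17.5 in Col-0 and rose by 2.41 and 2.28.

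Several of the largest rises were those of members given no role here. AT5G10695 read 265 and 273 at 22 °C and 24495 and 24040.0 at 37 °C in Col-0, and 325 and 355 at 22 °C and 26658 and 26263 at 37 °C in the samples labelled til1-1. It was the brightest member in heated til1-1, and AT3G10020 in heated Col-0. AT5G35320 went from 244 and 260.2 to 15928 and 14076 in Col-0 and from 240.1 and 251 to 16472 and 15738 in til1-1, and AT5G07330 went from 24.6 and 37.6 to 3907 and 3639 in Col-0 and from 49.5 and 22.4 to 3735 and 3335 in til1-1. AT5G35320 overlapped between genotypes at both temperatures. AT4G27657 went from 73.9 and 26.2 to 3173 and 3665 in Col-0 and from 63.5 and 19.5 to 3149.7 and 3182 in til1-1, and AT1G44414 went from 19.2 and 34.6 to 1469.8 and 1387 in Col-0 and from 45.5 and 4.6 to 1427 and 1579.7 in til1-1. In both, the replicates at 22 °C differed more than 1.5-fold within each genotype, while the heated samples differed less. AT3G10020, already bright at 22 °C, rose from 2715 and 2749 to 25360.0 and 23586 in Col-0. AT1G75860 went from 427 and 430.3 to 4220.2 and 3674 in Col-0 and from 439 and 454 to 4831 and 5152 in til1-1, and AT5G11680 went from 977 and 910.4 to 5338 and 5144 in Col-0 and from 834 and 801 to 6145 and 6242 in til1-1. Others with heat differences under 4 in Col-0 were AT1G18740, AT3G04640, AT1G02700, AT4G24410, AT5G19875, AT4G09150, AT2G36220, AT3G56250, AT2G21820, AT4G08230, AT1G19020, AT4G02550, AT4G29780, AT4G17250 and AT4G27652, the lowest being AT1G18740 (2.29 and 2.41). Above 4 lay AT5G05220, AT1G62730, AT4G23493, AT5G47830 and AT3G07150, up to 4.51 and 4.37 for AT3G07150.

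A few members without a role came from probe sets of uncertain target. Probe set names ending in _s_at mark probes shared by several transcripts. Outside the AT2G07 loci, 3 members had such names: AT1G10260 and AT3G10100, listed as pseudogenes, and AT1G48720, whose gene ID had no match in the table of genes. AT1G10260 went from 3.7 and 3.3 to 2041 and 2023 in Col-0 and from 0.7 and 13.6 to 1711 and 1547 in til1-1. AT1G48720 went from 6.0 and 1.0 to 446 and 738 in Col-0 and from 0.2 and 0.1 to 457 and 447 in til1-1. All controls of both lay below 16, and AT3G10100 was too dim to enter the test described below. AT3G17110, a transcribed pseudogene, rose by 4.11 and 4.51.

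**Figure D2:**
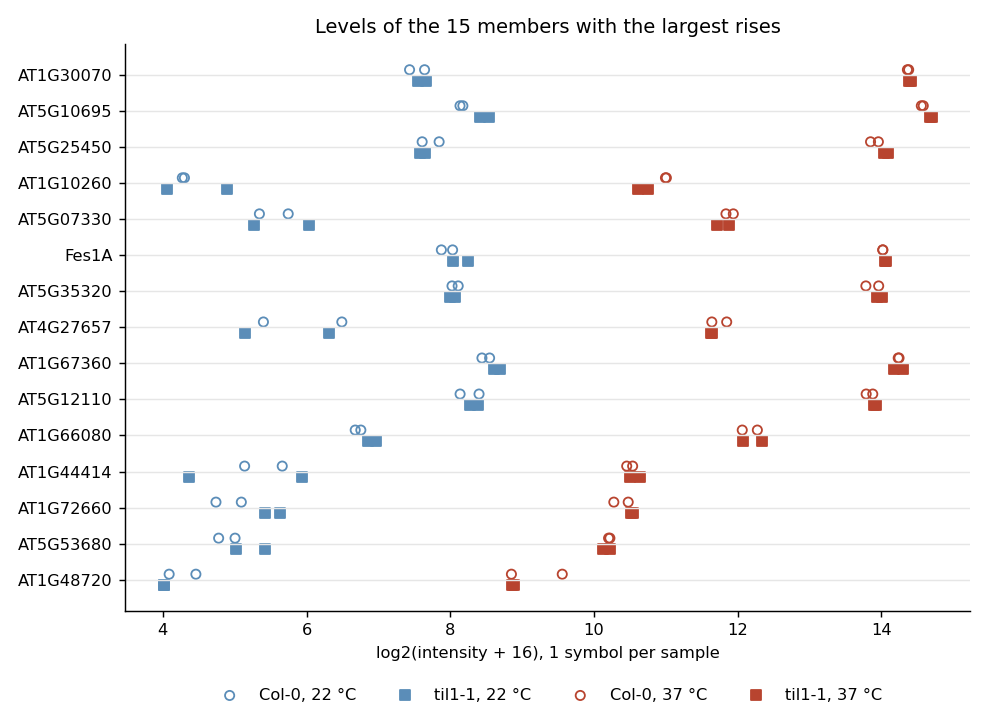
Levels, as log2(intensity + 16), of the 15 members whose lower heat difference of the 2 genotypes was largest, 1 symbol per sample: open circles Col-0, filled squares til1-1, blue 22 °C, red 37 °C. In every row the 4 red symbols lie to the right of the 4 blue ones, from AT1G30070 (6.83 in Col-0) to AT1G48720 (4.96).

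Of 42 genes listed as heat-raised outside the main chaperones, 5 had a probe set paired with 1 gene. Of these, AT5G25450, Fes1A and AT1G72660 are members and are described above. APG8A, an autophagy gene, rose by less: the log2 differences were 0.70 ± 0.09 (standard error) in Col-0 and 0.41 ± 0.09 in til1-1, at limma adjusted p-values of 4.69e-05 and 0.00233. AT2G21640, a marker of oxidative stress known as UPOX, rose by 0.90 ± 0.21 in Col-0 (limma adjusted p 0.00478) and had a difference of 0.19 ± 0.21 in til1-1 (limma adjusted p 0.502). After scaling to spiked controls neither passed, and in til1-1 the differences turned to -0.05 for APG8A and -0.23 for AT2G21640. No comparison of the responses between genotypes is given for these genes, so a different response is not read from these p-values. Group means of AT2G21640 were 83.4 to 167. With the deposited scaling, 12.4% of the 17060 tested probe sets were called higher in Col-0 and 12.7% in til1-1.

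The 17 members numbered AT2G07 stood apart from the rest by their place. By background knowledge, chromosome 2 of Arabidopsis carries, close to its centromere, a long nuclear copy of the mitochondrial genome, and the genes annotated within it resemble mitochondrial genes. All 17 lay in an unbroken stretch of 27 measured probe sets in the order of genes along the chromosome, from AT2G07773 to AT2G07741. Every one of the 27 had heat differences above 0 in both genotypes, and 23 were above 1 in both. On the near side of the stretch lay 34 measured AT2G07 probe sets and on the far side 6, and of these 40 just 1 was above 1 in both genotypes; 17 of the 34 and 2 of the 6 were above 0 in both. One further probe set, AT2G07718, had no place in the table of genes (1.37 and 1.61). The ends of the stretch were set after its values were seen, as the first and the last member, so these counts describe the stretch and test nothing.

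**Figure D3:**
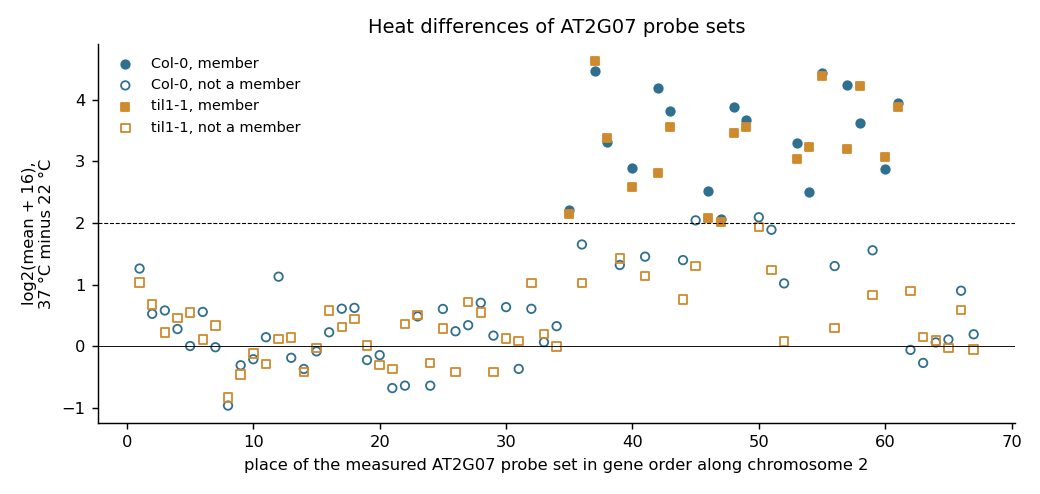
Heat differences, log2(group mean + 16) at 37 °C minus 22 °C, of the 67 measured AT2G07 probe sets with a known place, in gene order along chromosome 2 (equal spacing, not to scale); circles Col-0, squares til1-1, filled symbols members. Values lie between -0.96 and 1.26 up to place 34, between 0.08 and 4.62 from place 35 to 61, and between -0.27 and 0.90 after it.

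Within the stretch the highest heat differences were those of AT2G07749 (4.47 and 4.62) and AT2G07722 (4.43 and 4.38). AT2G07749 read 2.6 and 2.6 at 22 °C and 398 and 393 at 37 °C in Col-0, and 2.8 and 3.0 at 22 °C and 509.6 and 389.6 at 37 °C in the samples labelled til1-1. All 4 controls were under 16, so the size of this rise depends on the added constant. AT2G07741, annotated as a subunit of the mitochondrial ATP synthase, was brighter and went from 265 and 279 to 4444 and 4402 in Col-0 and from 278 and 288 to 4737 and 4048 in til1-1. AT2G07695, resembling a cytochrome c oxidase subunit gene, went from 141 and 128 to 606 and 620.4 in Col-0 and from 125 and 136 to 626 and 526 in til1-1. AT2G07676 went from 3.2 and 13.7 to 394 and 467 in Col-0 and from 41.5 and 34.3 to 399 and 329 in til1-1. Between these extremes lay AT2G07773, AT2G07721, AT2G07693, AT2G07739, AT2G07674, AT2G07719, AT2G07777, AT2G07732, AT2G07707, AT2G07678, AT2G07705 and AT2G07728. Of the 17 members, 11 had probe set names ending in _s_at (64.7%), against 1.25% of the nuclear 1-gene probe sets and 3.53% of the other 85 members. The share was much the same over all 27 probe sets of the stretch (66.7%), and it was 30.9% of all measured AT2G07 probe sets.

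Part of the mitochondrial genome gives a measure beside these values. The probe sets taken had gene symbols beginning with nad, ccb, cox, matR or orfX, and several belonged to the same gene, nad1. Of these 23 probe sets, each paired with 1 mitochondrially encoded gene, 14 met the same 4-fold limit in both genotypes. Median heat differences of the 23 were 2.91 in Col-0 and 2.99 in til1-1, with a range in Col-0 from -0.68 to 6.58. The medians of the 17 members, which all passed the limit by the rule, were 3.61 and 3.24. Those of all 27 probe sets of the stretch were 2.53 and 2.58. Transcripts of the nuclear copy and of the mitochondrial genome cannot be told apart with these probe sets, so the label nuclear is not borne out for the 17, and the genotype counts below are also given without them. Without them 85 members remain, with median heat differences of 3.31 and 3.22.

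Members also lay beside each other elsewhere. Taking each of the 85 members outside AT2G07 with each adjacent protein-coding gene that had a 1-gene probe set gave 76 combinations, with AT4G27654 counted beside AT4G27657 and beside AT4G27652. In 5 of these (6.58%) the neighbour met the 4-fold rule, against 0.823% of 11664 such combinations over all nuclear genes outside AT2G07. The 5 come from 3 pairs of genes, counted from each side that is a member, AT1G66080 with AT1G66090, AT2G41160 with AT2G41170, and AT1G62730 with Hop2. AT1G66080 and AT1G66090 differed in level and in size of rise (5.45 and 5.29 against 4.13 and 3.79), as did AT1G62730 (4.11 in Col-0) and Hop2 (2.59). Since the rule chose both partners, the share is a description.

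The genotypes were compared within each temperature, a contrast that the rule did not use, although it used the same samples. The comparison asks whether the members' levels differ between the genotypes before or after heat shock. For the 100 members tested, the log2 differences of til1-1 from Col-0 at 37 °C ran from -0.36 to 0.34, with a median of 0.03 (0.01 over all 17060 probe sets tested). None was called by limma at an adjusted p under 0.05, with or without an intensity trend, where 2 of all 17060 (0.0117%) were with the trend. At an unadjusted p under 0.05 there were 6 of 100 members, against 13.4% of all tested. The median 95% confidence interval of a member reached 0.28 to either side, so the missed threshold does not show equal levels. Without the AT2G07 loci 6 of 84 had an unadjusted p under 0.05 and the median was 0.04.

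At 22 °C the differences were wider, from -0.79 to 1.17 with a median of 0.06. Both ends of that range were AT2G07 loci, and without these loci it ran from -0.60 to 0.69. Again no member was called by limma with or without the trend (0.00586% of all tested were, with it). At an unadjusted p under 0.05 there were 16 of 100 members, against 3.85% of all tested, and 14 of 84 without the AT2G07 loci. The median standard error was 0.13 for members and 0.15 for all tested. Each probe set had the same standard error at both temperatures, while the members were by the rule dimmer at 22 °C than at 37 °C. Over all tested probe sets the median standard deviation of replicates was 0.075 in Col-0 and 0.089 in til1-1 at 22 °C. At 37 °C it was 0.119 and 0.123. The shares at an unadjusted p under 0.05 depend on this shared standard error at either temperature, so nothing is read from them. Both til1-1 samples lay above both Col-0 samples at 22 °C in 25 of 102 members (24.5%, against 18.3% of the nuclear probe sets) and below them in 11 (10.8%, against 17.2%). At 37 °C the same counts were 25 (24.5%, against 21.2%) and 10 (9.80%, against 16.1%). Without the AT2G07 loci, of 85 members, they were 21 above and 9 below at 22 °C, and 24 above and 7 below at 37 °C.

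**Figure D4:**
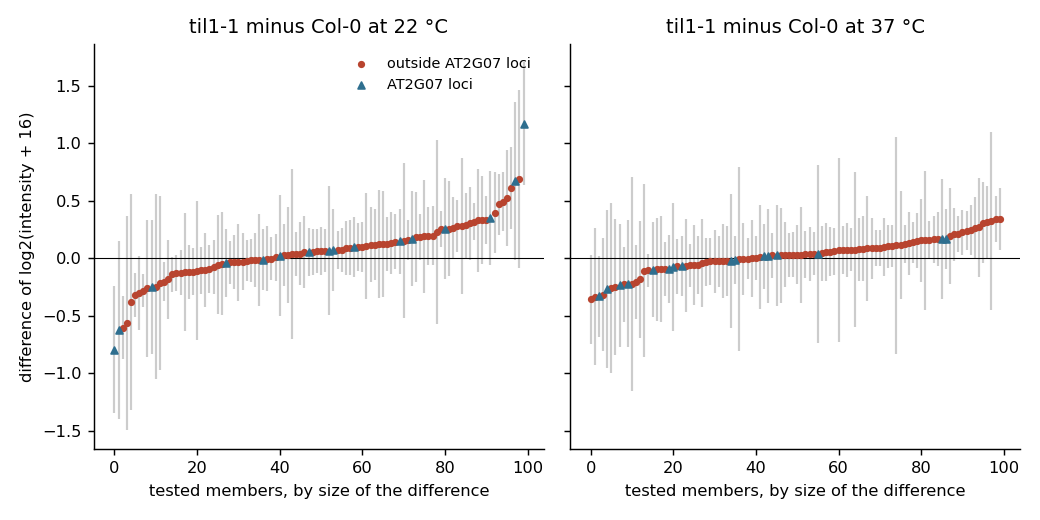
Differences of log2(intensity + 16), til1-1 minus Col-0, of the 100 tested members at 22 °C (left) and 37 °C (right), each panel sorted by size; points are limma estimates, grey bars 95% confidence intervals, triangles the AT2G07 loci. Points run from -0.79 to 1.17 at 22 °C and from -0.36 to 0.34 at 37 °C, and none passed after adjustment.

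The members of smallest p at 22 °C are given although none passed. AT2G07676 read 3.2 and 13.7 in Col-0 and 41.5 and 34.3 in til1-1, a difference of 1.17 ± 0.24 (standard error, limma adjusted p 0.772) at dim values. AT3G14200, a DnaJ-domain gene, read 274 and 259.9 in Col-0 and 196 and 148 in til1-1, a difference of -0.60 ± 0.13 (limma adjusted p 0.772). These pointed in opposite directions. The plastid chaperonin gene Cpn60beta2 was lower in til1-1 by a like step in both samples (1583 and 1531 against 1256 and 1301, difference -0.28 ± 0.07). AT5G10695 (0.32 ± 0.07) and the phosphatase gene AT3G62260 (139 and 110.1 against 184 and 178, difference 0.49 ± 0.12) had higher values in til1-1; the adjusted p of these 3 by limma was 0.914. In each of the 5, both samples of one genotype lay above both of the other. The 5 were picked by the smallest p of this same contrast, so nothing is read from that order. Over the nuclear probe sets at 22 °C both til1-1 samples lay above in 18.3% and below in 17.2%.

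At 37 °C the members of smallest p all had higher values in til1-1. AT1G75860, given no role, read 4220.2 and 3674 in Col-0 and 4831 and 5152 in til1-1, a difference of 0.34 ± 0.09 (limma adjusted p 0.164). For AT5G11680 the values were 5338 and 5144 and 6145 and 6242 (0.24 ± 0.08), and for the peptidase gene AT3G07090 the difference was 0.21 ± 0.07. The hydrolase gene AT1G73480 (0.34 ± 0.12) and the RING gene AT5G47610 (0.23 ± 0.09) followed. Limma adjusted p-values of these 4 ran from 0.22 to 0.31.

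The difference of the heat responses, til1-1 minus Col-0, is made of the same 2 heat differences that chose the members, so it is given as a description with no test. Its median over the 100 members was -0.04, with a range from -1.41 to 0.73, and without the AT2G07 loci the median was -0.00. The members named next were picked by the smallest p of the planned test, not by size. That choice favours estimates that are large against their standard errors, so nothing is read from that relation. Larger differences than some of those named next, with wider standard errors, were those of AT2G07728 (-0.94 ± 0.44) and AT2G07721 (0.66 ± 0.50). AT3G14200 had a difference of 0.73 ± 0.18 (standard error), AT5G11680 of 0.44 ± 0.11 and AT3G07090 of 0.35 ± 0.10. AT2G07676 (-1.41 ± 0.34) and AT3G62260 (-0.55 ± 0.17) had the opposite sign. For AT3G14200, AT2G07676 and AT3G62260 the genotypes were farther apart at 22 °C than at 37 °C, where their differences were 0.13 ± 0.13, -0.24 ± 0.24 and -0.06 ± 0.12.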

How the data were processed

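RNA of 8 seedling samples was hybridised to Affymetrix arrays, and groups were taken from the sample titles. The authors computed the intensities with GCOS, per the submitters' processing notes, which name no version, summary method or genome build. After trimming 2% at each end, the mean of the deposited intensities was 500.04 to 500.05 on every array, so arrays had been scaled alike. Probe sets were named by the platform annotation, and 13436 of 13513 with 1 gene matched the TAIR10.1 gene table by gene ID. Of the others, those with a locus from AT1G to AT5G as symbol kept it, and the rest were not among the nuclear probe sets. The 503 with several genes and 8730 unlisted ones were not used as members. Heat differences are of log2(group mean + 16).

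Genotypes were compared with limma 3.58.1 in R 4.3.3 on log2(intensity + 16), fitting the 4 group means to the 8 samples, with the variance prior following intensity and Benjamini-Hochberg adjustment at 0.05 over 17060 probe sets left after dropping 64 controls and the 25% of lowest mean; this left out 2 members, AT3G10100 and AT2G07693. The fit was also run on simulated data, in which each probe set had the same spread in all 4 groups. That run therefore cannot show how the fit behaves when the spread differs between temperatures. A test of the difference of heat responses had been planned, but it is made of the values that chose the members and is given as a description. Its p-values served only to pick the members named there. Members, lists and functional groups were chosen with earlier results of these data known. Named members are the 15 of largest lower heat difference, the 5 of smallest p per genotype comparison, those on the list of heat-raised genes, and the first of each functional group; others are named to account for every group. Promoter and protein sequences planned for description were not used here. Replicates are separate pools per the series' design text; p-values measure the spread between pools.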

Additional observations from a re-analysis of the deposited data

How the results depend on the processing

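The number of members depended most on the constant added before the logarithm. After the exclusions by name, 102 probe sets met the rule with 16, 172 with 1 and 85 with 64 (without the AT2G07 loci 85, 154 and 73). Equal array medians gave 133, against 110 after quantile normalization (99 of the 102 among them), 77 after scaling to spiked controls and 100 to 105 leaving out 1 sample; without the AT2G07 loci the 3 scalings gave 115, 92 and 63. Median heat differences in Col-0 and til1-1 were 3.55 and 3.59 with a constant of 1, 2.96 and 2.91 with 64, 3.67 and 3.55 with medians set equal, 3.44 and 3.37 after quantile normalization and 2.91 and 2.85 after scaling to spiked controls, 3.25 to 3.43 and 3.22 to 3.29 leaving out 1 sample. The smallest heat difference of a member under a scaling was 1.58, so none changed direction. Scaling to spiked controls shifted the median genotype difference over all probe sets to 0.13 at 22 °C and 0.12 at 37 °C. Over all tested probe sets the median heat difference in Col-0 was -0.18 as deposited, 0.14 with medians set equal and -0.61 after scaling to spiked controls, and higher calls by limma went from 2118 to 5189 and 803 in Col-0 and from 2174 to 5031 and 807 in til1-1.

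No member was called by limma between genotypes at 22 °C or at 37 °C under any alternative run: both constants, 3 scalings, no filter or a filter of 50%, no trend, the 4 samples compared alone, each sample left out, or without the AT2G07 loci, a choice made after seeing the data. With the replicate number as a block 0 members were called at either temperature. Over all probe sets that block gave 3 at 22 °C and 15 at 37 °C, against 1 and 2 without it and 0 and 10 without the trend. Deviations of same-numbered samples correlated at -0.04 to 0.14 between groups. The highest were those between the genotypes at the same temperature, 0.14 at 22 °C and 0.11 at 37 °C. The main fit did not treat the numbers as pairs. The block used the same offset at both temperatures, so a pairing within each temperature was not tested. Shares of promoters with heat shock elements were not run, as no sequences were used here. Dim members, 14 with a mean under 16 in Col-0 at 22 °C (9 without the AT2G07 loci), have rises whose size is set by the constant.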
